A study of Nezara viridula with 24 samples.

Results

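The genes described here were found in salivary glands of corn-fed southern green stink bugs (Nezara viridula) at a moderate level. They were nearly lacking from the midgut on the same diet. They were chosen on the 12 corn libraries. Counts of isoforms were summed to Trinity genes, the gene units of a transcript assembly built from the reads themselves, and each sum was divided by its library total and scaled to CPM (counts per 1e+06). A gene was a member where its mean over 3 corn gland libraries was at least 100 and under 1000 CPM, and where its mean in each of the midgut sections M1, M2 and M3 was at most 1% of that. The rule found 95 of 201329 Trinity genes.

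Polyadenylated RNA was sequenced from adults given corn or green bean for 24 h after the moult to the adult, in 8 groups of 3 libraries. On each diet these were the salivary glands and the M1, M2 and M3 sections of the midgut. Each library held tissue from a pool of 4 to 10 individuals, dissected in phosphate-buffered saline. The labels give no strain, sex or genotype. They do not state that pools of a group came from separate cultures, and a p-value here sets a difference against the spread between pools alone. In pooled tissue, fewer cells of a type and less RNA per cell cannot be told apart.

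Stink bugs feed by piercing plant tissue with their stylets and injecting saliva, which liquefies food before it is sucked up. Salivary glands of plant bugs secrete a gel saliva that hardens into a sheath around the stylets and a watery saliva with digestive enzymes and proteins that act on the plant. The midgut behind them is divided into sections in which the meal is stored, digested and absorbed. The tables used here pair no member with a gene name, so each is given by its assembly identifier, with no role and no sequence. CPM is not divided by transcript length, so it compares libraries for one gene and does not rank genes by abundance.

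Library totals ran from 17819164 to 33954593 estimated counts over the 24 libraries, and from 19539652 to 25126353 in the glands. Corn gland replicate 1 stood apart from the other corn gland libraries, with 109035 transcripts detected against 53451 and 55602, while the green bean gland libraries detected 89662 to 99769. Corn midgut split the same way. Replicate 1 detected 129831 transcripts in M1, 143625 in M2 and 166312 in M3, and replicates 2 and 3 detected 58803 to 87057. Green bean midgut libraries detected 93573 to 131963. The low numbers thus lay in replicates 2 and 3 of every corn tissue, and cannot be fully told apart from diet. In green bean midgut, M1 replicate 1 held the most member counts. As a measure of midgut RNA in the gland libraries, 89 genes restricted to the midgut on corn were summed. They reached 334, 477 and 540 CPM in corn glands and 2226, 301 and 1767 CPM in green bean glands (replicates 1, 2 and 3), against 95999.6 to 157898 CPM in midgut libraries. At most 1 of the 89 was at 0 in any gland library. The 89 were chosen in part by their low corn gland levels. This held the corn gland sums low and did not bind the green bean ones, so these sums do not compare the diets evenly. The tissue labels could not be checked against markers of known cell types.

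The members made up 17.2% of the 551 genes that lay between 100 and 1000 CPM in corn glands. The other 456 genes of that window exceeded the 1% limit in at least 1 midgut section. Most members were far inside the limit on corn. The highest section lay at a median of 0.116% of the gland mean, and it was at or under 0.2% in 83 members and at or under 0.5% in 91. At the lower level limit, TRINITY_DN5916_c0_g1 at 103.9 CPM was the nearest inside and TRINITY_DN22305_c0_g2 at 95.3 CPM the nearest outside. At the upper one, TRINITY_DN8957_c0_g1 at 974.5 CPM was inside and TRINITY_DN17455_c0_g1 at 1036.8 CPM outside. At the midgut limit, TRINITY_DN3582_c0_g1 reached 0.965% and TRINITY_DN108_c0_g1 1.04%. These values chose the members and carry no test.

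**Figure D1:**
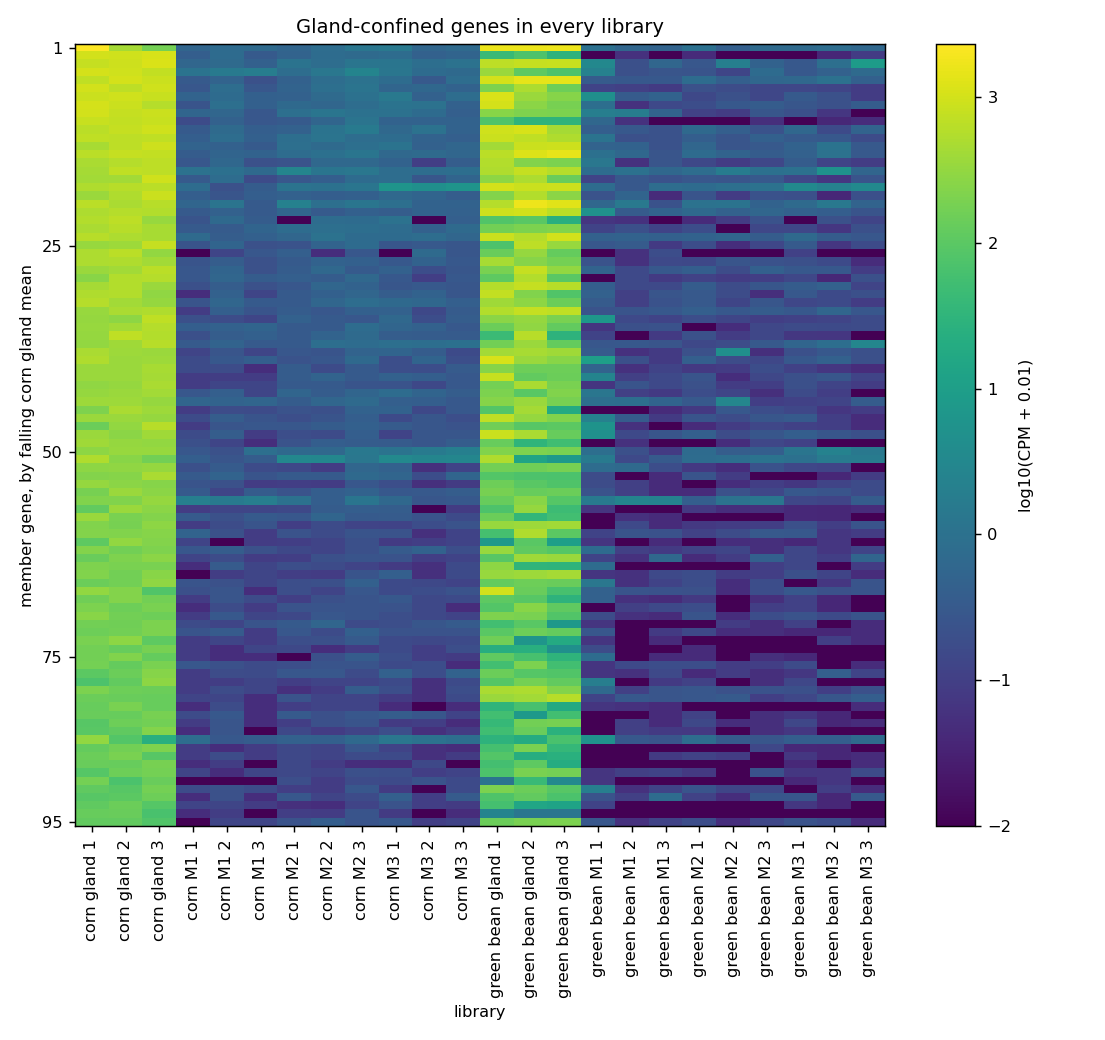
Level of the 95 members (vertical axis, from the highest to the lowest corn gland mean) in all 24 libraries (horizontal axis), as log10(CPM + 0.01), with gland values from the gland table and midgut values from the midgut table. The 6 gland columns stand out from the 18 midgut columns in both diets, and values at 0 counts (darkest) lie mostly in green bean midgut.

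All members together took 3.66% ± 0.135 of the counts in corn glands and 2.90% ± 0.463 in green bean glands (SD, n = 3 each). Their summed level was 35771, 35933 and 38188 CPM in corn glands, and 30710, 32447 and 23709 CPM in green bean glands (replicates 1, 2 and 3). The diets did not overlap in this sum on plain library totals, and green bean replicate 3 was the lowest library. The diet test below rescales totals by a factor per library (TMM). It was 1.22 for corn replicate 1 and 0.937 to 0.992 for the other gland libraries. With these factors, the sum in corn replicate 1 falls under those of green bean replicates 1 and 2. The lack of overlap thus holds for plain totals only, and the diets overlap on rescaled totals. The sum was spread over many genes. Between 12 and 25 members held 50% of it, depending on the gland library. The 106 gland-confined genes at or above 1000 CPM took 55.2% ± 1.49 of the counts in corn glands and 56.1% ± 3.89 in green bean glands.

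Whether the members were also confined to glands on the other diet was asked with the 12 green bean libraries, which the rule did not use. Levels were set across the gland and midgut tables, which were processed apart, so this is a description. Of 95 members, 92 stayed at or under 1% of their green bean gland mean in all 3 sections, and the median of the highest section was 0.0959%. The exceptions were TRINITY_DN6146_c0_g1, TRINITY_DN79_c4_g2 and TRINITY_DN11618_c0_g1. They were named after their values were seen.

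TRINITY_DN79_c4_g2 reached 5.67 CPM in M1 replicate 1 and at most 0.132 CPM in the other 8 green bean midgut libraries. Its highest section mean was 1.58% of its gland mean, and 0.0685% without that library. TRINITY_DN11618_c0_g1 had 5.16 CPM in M1 replicate 1 and 0.250 to 0.797 CPM elsewhere. It came to 4.99% of a low gland mean of 38.1 CPM, and to 1.29% without M1 replicate 1. TRINITY_DN6146_c0_g1 did not rest on that library, with 1.57, 2.61 and 2.32 CPM in M1, a mean of 1.38% of its gland level, and 1.57% without M1 replicate 1.

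M1 replicate 1 was the highest of the 9 green bean midgut libraries for the members as a set. Their summed level was 88.1 CPM there and 17.99 to 31.9 CPM in the other 8, against 24.6 to 52.3 CPM over the 9 corn midgut libraries. It was the highest of the 9 for 37 members, and likewise for 51 of the 106 confined genes at or above 1000 CPM. The median member stood at 0.111% of its gland mean in it, against 0.0355% to 0.0615% in the other 8 green bean midgut libraries and 0.0529% to 0.130% in the corn ones, and its upper quartile was 0.415%. The 5 highest members held 38.1% of the library's member sum. The summed level by group was 27.9 ± 5.47, 44.1 ± 7.38 and 42.3 ± 7.25 CPM in corn M1, M2 and M3. It was 42.0 ± 39.9, 22.3 ± 2.76 and 28.3 ± 4.03 CPM in green bean M1, M2 and M3 (SD, n = 3 each).

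**Figure D2:**
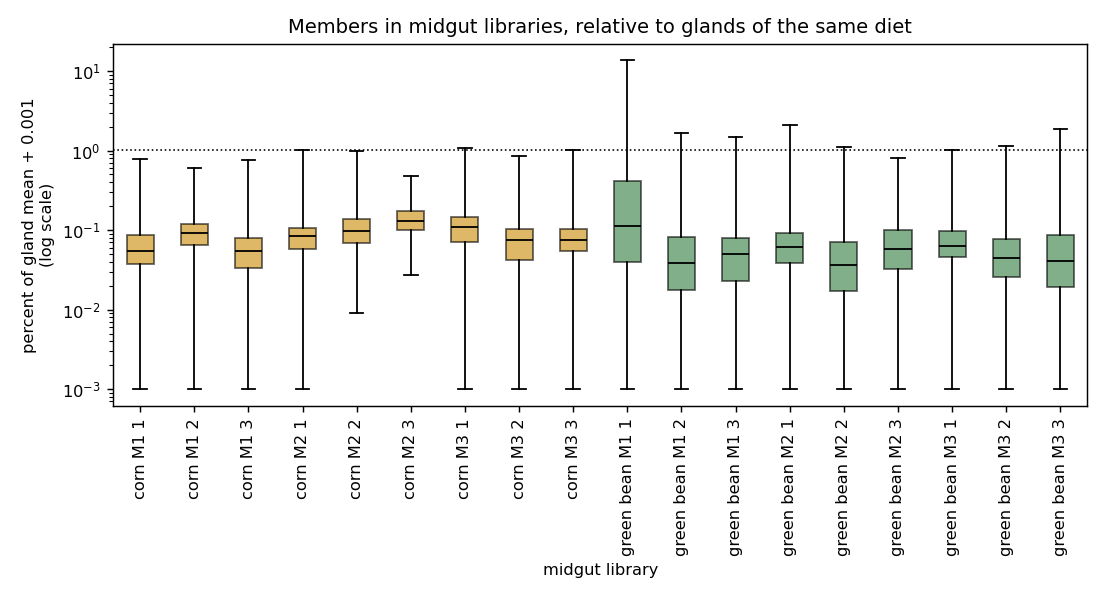
Level of each member in the 18 midgut libraries (horizontal axis) as a percent of its gland mean on the same diet, plus 0.001 (vertical axis, log scale), with boxes from the lower to the upper quartile, a line at the median, whiskers to the lowest and highest member and a dotted line at 1%. Medians lie between 0.0355% and 0.130% without the added constant, and green bean M1 replicate 1 has the widest upper box.

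In counts, these midgut levels were small. The median member had 3 counts per green bean midgut library and 7 per corn midgut library, and 138 of 855 member values in green bean midgut were at 0. A count in every library was found for 52 members in green bean midgut and for 82 in corn midgut. TRINITY_DN2154_c0_g1 had no count in any of the 9 green bean midgut libraries. A count of 0 allows up to 3 counts over the 9 libraries, or 0.0128 CPM, for counting error only. On corn it had 16 counts over the 9 midgut libraries. Its gland mean was also far higher on corn, 111.7 CPM against 1.71 CPM on green bean. The midgut counts of the 2 diets are thus not set against equal gland levels.

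In the glands, 4 of 95 members passed the test for a diet difference, all of them lower on green bean, and the median member was lower there as well. The test was edgeR's quasi-likelihood test on all 6 gland libraries, with Benjamini-Hochberg adjustment over 12741 genes at a threshold of 0.05. Over all genes tested, 0.102% were called lower on green bean and 0.0157% higher. All 95 members were among the genes tested. The corn gland levels in this contrast also chose the members, while the green bean levels did not, so a count of lower members is in part set by the choice.

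TRINITY_DN2154_c0_g1 had 130.4, 139.6 and 65.0 CPM in corn glands and 2.63, 1.24 and 1.25 CPM in green bean glands (replicates 1, 2 and 3). Every green bean library was far under every corn library. The corn mean was 111.7 ± 40.7 CPM and the green bean mean 1.71 ± 0.796 CPM (SD, n = 3 each), a ratio of 65.4 on the CPM scale. The log2 fold change, green bean over corn, was -5.94 with a standard error of 0.48 (edgeR adjusted p = 0.0222).

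TRINITY_DN2154_c0_g2, of the same assembly component, had 985, 933 and 1090 CPM in corn glands and 43.9, 73.0 and 29.8 CPM in green bean glands. The groups did not overlap, and the corn values lay close together. Its means of 1002.4 ± 79.96 and 48.9 ± 22.0 CPM differed by 20.5 times, with a log2 fold change of -4.30 and a standard error of 0.40 (edgeR adjusted p = 0.0356). The third member of the component, TRINITY_DN2154_c0_g3, did not pass the test (log2 fold change -1.91, standard error 0.63, edgeR adjusted p = 0.395). It had 115, 143 and 88.5 CPM on corn and 59.5, 14.9 and 12.9 CPM on green bean, again without overlap. Genes of 1 component share assembled sequence, so the quantifier's division of reads between them is uncertain and they are not independent.

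The other 2 members that fell are named because the count is small, after their values were seen. TRINITY_DN758_c0_g1 had 799, 753 and 808 CPM on corn and 78.2, 30.1 and 30.7 CPM on green bean. Green bean replicate 1 was the highest of its group and still far under the corn libraries. The means, 786.8 ± 29.5 and 46.3 ± 27.6 CPM, differed by 16.98 times (log2 fold change -4.01, standard error 0.47, edgeR adjusted p = 0.0489). TRINITY_DN5568_c1_g1 had 1006, 782 and 851 CPM on corn and 254, 207 and 203 CPM on green bean. The diets were again apart, by 3.97 times in their means (log2 fold change -1.91, standard error 0.22, edgeR adjusted p = 0.0489).

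**Figure D3:**
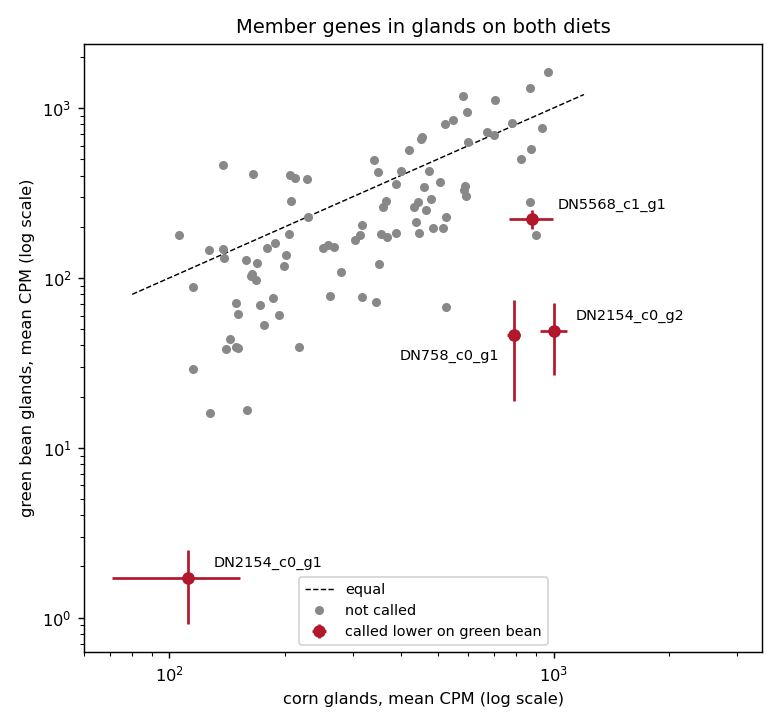
Mean level of each of the 95 members in corn glands (horizontal axis) and green bean glands (vertical axis), both in CPM on log scales, identifiers shortened by their common start, with the 4 members called lower on green bean in red with bars of 1 SD (n = 3) and the dashed line at equal levels. Most members lie under the line, and TRINITY_DN2154_c0_g1, at 111.7 and 1.71 CPM, lies farthest from it.

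Among 6 fits that left out 1 gland library each, the 4 calls were lost in 3, 4, 5 and 5 fits in the order given, with fold changes between -6.41 and -5.64, -4.69 and -4.04, -4.65 and -3.77, and -2.04 and -1.85. Their edgeR adjusted p reached 0.0597, 0.179, 0.186 and 0.231 in these fits. The number of members called lower, 4, was 4 without green bean replicate 1 and 3 without corn replicate 1. The 4 called without green bean replicate 1 were not the same 4. TRINITY_DN2154_c0_g2 and TRINITY_DN5568_c1_g1 did not pass there (edgeR adjusted p = 0.0688 and 0.0662). The number was 1 without green bean replicate 2, 0 without green bean replicate 3, 0 without corn replicate 2 and 1 without corn replicate 3.

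No member passed as higher on green bean by edgeR, where 9 members were higher (background 5.07%) and 26 lower (background 5.14%) at an unadjusted p under 0.05. DESeq2 called 16 members lower and 4 higher, against 1.7% and 1.45% of all genes tested. The 16 included the 4 named above and also TRINITY_DN2154_c0_g3 (DESeq2 adjusted p = 0.0375). The 4 higher ones were TRINITY_DN824_c0_g1, TRINITY_DN681_c1_g2, TRINITY_DN23_c3_g4 and TRINITY_DN5916_c0_g1, named after their values were seen. The first had 145, 136 and 133 CPM on corn and 351, 418 and 621 CPM on green bean, with every green bean library above every corn library. Its means differed by 3.36 times, and its log2 fold change was 1.81 with a standard error of 0.26 (edgeR adjusted p = 0.0722, DESeq2 adjusted p = 3.87e-08).

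**Figure D4:**
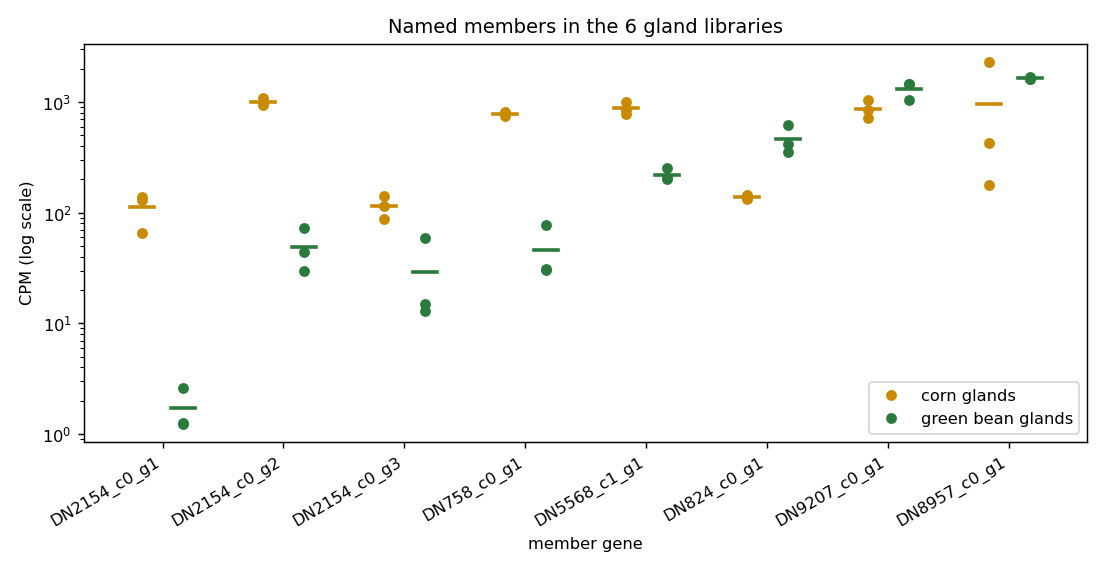
Level of 8 members in each of the 3 corn and 3 green bean gland libraries (points, CPM on a log scale), identifiers shortened by their common start, with a bar at each group's mean. The 4 called members show no overlap between the diets, and neither do TRINITY_DN2154_c0_g3 and TRINITY_DN824_c0_g1, which did not pass the edgeR test.

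Of the 95 members, 68 (71.6%) had a log2 fold change below 0, and the median was -0.62, with quartiles of -1.25 and 0.11. Over all genes tested, 51.8% lay below 0 and the median was -0.02. In the window of the same corn gland level but not confined to glands, 292 of 456 genes (64.0%) lay below 0, with a median of -0.06. The medians were -0.21 for the confined genes at or above 1000 CPM and -0.28 for the 108 confined genes at 10 to 100 CPM. A fold change of -1 or lower was found in 33 members (background 3.99%), and of 1 or higher in 4 (background 9.76%). All green bean libraries lay under all corn libraries in 29 members (30.5%, background 13.7%) and above them in 9 (9.47%, background 4.19%). Overlap was read on CPM of plain library totals, for members and background alike, while the fold changes use TMM-scaled totals. These counts are descriptions, since members share libraries and were chosen on the corn side of the contrast.

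The shift depended on which libraries and which diet defined it. With corn replicates 2 and 3 left out, so that corn replicate 1 stood alone and was assumed to vary like the other group, 50 members lay below 0 and the median was -0.09. Without green bean replicate 3, 65 lay below 0 and the median was -0.38. The same rule applied to the green bean libraries found 108 genes, of which 66 were members (69.5% of the members and 61.1% of the 108). Of those 108, 67 lay below 0 (62.0%), with a median of -0.42. Green bean replicates 1 and 3 also held the higher sums of midgut-restricted genes, which were chosen in part by low corn gland levels. Corn replicates 2 and 3 held the lower numbers of detected transcripts. The part of either in the diet difference was not tested.

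The median lay below 0 in each band of corn gland level, though these bands are cut on values that chose the members. Members of 100 to 200 CPM in corn glands had a median of -0.62 and 24 of 31 below 0. Those of 200 to 500 CPM had -0.68 and 30 of 39, and those of 500 to 1000 CPM had -0.46 and 14 of 25, a share near the 51.8% of all genes. Called members came from the first band (1) and the last (3). In green bean glands, 23 members were under the limit of 100 CPM, 1 of them under 10 CPM, and 4 reached 1000 CPM or more.

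The 2 members with the highest green bean gland means by CPM did not pass the test. TRINITY_DN9207_c0_g1 had 711, 1054 and 847 CPM on corn and 1044, 1449 and 1466 CPM on green bean (edgeR adjusted p = 0.562). Corn replicate 2 just overlapped the green bean range. TRINITY_DN8957_c0_g1 had 2297, 425 and 177 CPM on corn and 1605, 1617 and 1690 CPM on green bean (edgeR adjusted p = 0.728). It varied between corn libraries by far more than between green bean libraries.

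How steady the members were between pools differed between the diets. The median coefficient of variation (SD over mean, 3 libraries) was 22.5% over the members in corn glands and 55.8% in green bean glands, the latter over the 94 members with at least 10 CPM there. In the 456 non-confined genes of the same window it was 14.6% and 13.7%, and in the confined genes at or above 1000 CPM it was 17.8% and 51.1%. The highest library exceeded the lowest by at least 3-fold for 7 members in corn glands (background 23.2% of genes tested with no 0 there) and for 42 in green bean glands (background 13.8%). In corn and green bean glands, the shares were 7.37% and 44.2% of members and 0.877% and 2.19% of the non-confined genes of the window. They were 1.89% and 41.5% of the confined genes at or above 1000 CPM. Confined genes at 10 to 100 CPM had 26.9% and 43.9%. At 10-fold the numbers of members were 2 and 8. Members were required to lie under 1000 and at or above 100 CPM on average in corn glands, which bears on the corn spread and not on the green bean one. With the rule applied to the green bean libraries, 9 of 108 genes spread by 3-fold in corn glands and 47 in green bean glands.

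Among those 42 members, green bean replicate 3 was the lowest library for 28 and the highest for 2, while replicates 1 and 2 were the highest for 20 each. TRINITY_DN3582_c0_g1 had 518 CPM in green bean replicate 1, 13.8 in replicate 2 and 7.75 in replicate 3. TRINITY_DN181_c0_g1, the second most variable member over the 6 gland libraries, had 310, 227 and 82.2 CPM on corn and 1012, 137 and 63.1 CPM on green bean. TRINITY_DN11618_c0_g1, the most variable, fell between 19.7 CPM (green bean replicate 2) and 311 CPM (corn replicate 1). The diets overlapped in all of these.

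At the other end were the members that varied least over the 6 gland libraries. TRINITY_DN2846_c1_g1 had the lowest coefficient of variation, 0.124 as a fraction, with 480, 370 and 353 CPM on corn and 412, 467 and 398 CPM on green bean. TRINITY_DN2048_c1_g1 followed at 0.158, with 709, 685 and 709 CPM on corn and 864, 691 and 517 CPM on green bean. Neither separated the diets. Outside the glands, TRINITY_DN2846_c1_g1 stood at 4.59 CPM in green bean M2 replicate 2 and at 0.0438 to 0.337 CPM in the other green bean midgut libraries.

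The members comprised 348 isoforms, of which 271 averaged at least 1 CPM in glands of either diet. A single isoform was assembled for 35 members (36.8%), compared with 20.2% of the non-confined genes of the window and 18.9% of the confined genes at or above 1000 CPM. The median was 2 isoforms per member against 4 in the non-confined window, and the largest number was 19. The isoform with the most counts, the top isoform, was another on green bean in 12 of the 60 members with 2 or more isoforms. That was near the background of 20.3% of such genes. Isoform shares here are shares of counts, which are not divided by transcript length. The share of the corn top isoform did not overlap between diets in 13 of the 60 (background 12.9%). This count takes no account of size. The corn and green bean means were 100% and 99.99% in TRINITY_DN11419_c0_g1, and 56.6% and 54.9% in TRINITY_DN57_c0_g1, while the largest differences are given next.

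TRINITY_DN2984_c2_g1 had the largest difference in this share. Its corn top isoform, i11, took 75.6%, 86.7% and 83.1% of the gene on corn and 45.1%, 41.8% and 9.15% on green bean. The means were 81.8% ± 5.64 and 32.0% ± 19.9 (SD, n = 3 each), with no overlap. For TRINITY_DN1538_c0_g1, isoform i3 took 68.1%, 30.4% and 45.2% on corn and 13.6%, 7.15% and 1.99% on green bean, also without overlap and with a wide corn spread. Of the called members, TRINITY_DN5568_c1_g1 had 85.6% ± 2.53 and 45.5% ± 21.6 in its corn top isoform on corn and green bean. TRINITY_DN2154_c0_g2 had 97.6% ± 0.506 and 70.5% ± 17.9, and TRINITY_DN758_c0_g1 had 50.3% ± 7.18 and 23.5% ± 19.3, also without overlap.

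**Figure D5:**
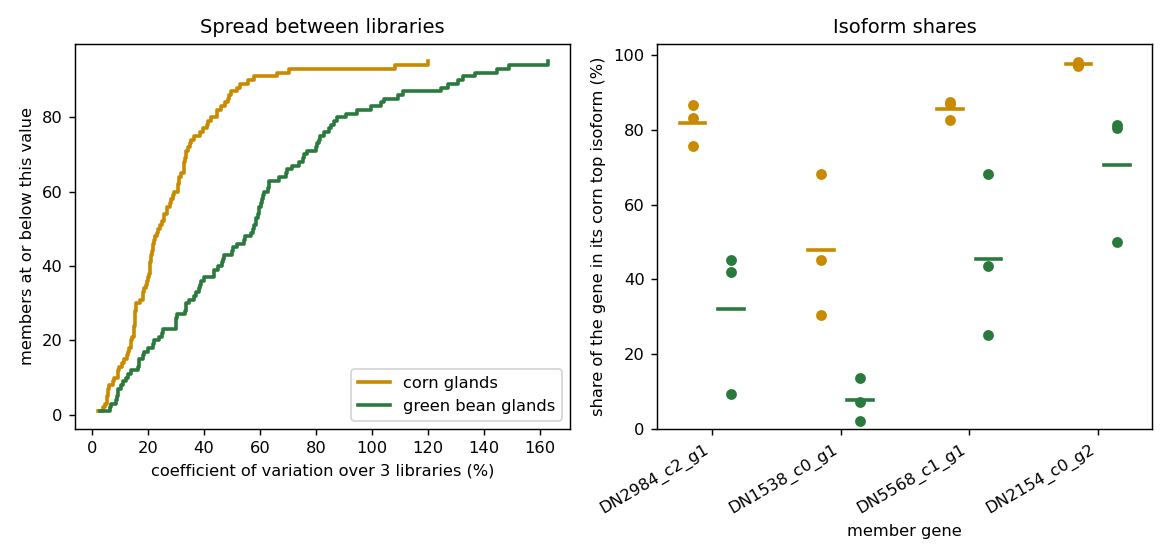
Left, number of members at or below each coefficient of variation (percent, 3 libraries) in corn and green bean glands, where the green bean curve lies to the right; right, percent of the gene taken by its corn top isoform in each gland library for 4 members (points, with a bar at each mean), identifiers shortened by their common start. In these 4 members every green bean library lies under every corn library.

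No isoform of a member passed the diet test when transcripts were tested singly with edgeR, as for all transcripts (background 0%, 0 of 23969). Of 274 member isoforms tested, 62 had an unadjusted p under 0.05, 44 of them lower on green bean, against 6.57% of all transcripts, and DESeq2 called 41, against 2.71% of all transcripts. The lowest edgeR adjusted p among them was 0.0622. A lack of calls by edgeR does not show that isoforms did not differ. The quantifier's division of reads among isoforms of 1 gene is uncertain.

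The 95 members fell into 91 assembly components, groups of transcripts that share sequence in the assembly. Only 3 components held 2 or more members, and 54 members were alone in theirs. Another gene of at least 10 CPM in corn glands shared the component of 28 members, and a confined gene at or above 1000 CPM that of 12. TRINITY_DN2154_c0 held 3 members, described above. In TRINITY_DN1211_c0, both members had lower means on green bean, from 523.5 to 67.0 CPM for the first gene and from 486 to 197 CPM for the second, and neither passed the edgeR test. The first, TRINITY_DN1211_c0_g1, passed with DESeq2 (log2 fold change -2.89, DESeq2 adjusted p = 2.4e-06). Its diets did not overlap, while those of the second gene did. In TRINITY_DN23_c3, TRINITY_DN23_c3_g1 averaged 874 ± 47.7 CPM on corn and 576 ± 487 on green bean, while TRINITY_DN23_c3_g4 averaged 212 ± 44.0 and 387 ± 47.3 CPM.

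Differences between midgut sections were tested on the 9 green bean midgut libraries, which the rule did not use. Only 21 members had enough counts to enter the test among 19611 genes, and a member could enter through the section where it was high. edgeR called 0 of them between M2 and M1 (background 3.78%, with 2 at an unadjusted p under 0.05 and 1 by DESeq2, against 12.1% of all genes), 1 between M3 and M2 (background 7.69%) and 2 between M3 and M1 (background 18.4%). Without a block, these counts were at 0 or their shares under the background. With the replicate number as a block, the last count was 4, near a background of 19.7%. With so few counts, a member that was not called is not shown to be equal between sections.

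TRINITY_DN6146_c0_g1 had its highest mean in M1 and was lower in M3. Its green bean levels were 1.57, 2.61 and 2.32 CPM in M1, 0.381, 1.02 and 1.27 CPM in M2, and 0.129, 0.118 and 0.349 CPM in M3. M1 and M3 did not overlap. The log2 fold change, M3 over M1, was -3.51 with a standard error of 0.65 (edgeR adjusted p = 0.0109), and it passed in all 9 fits that left out 1 library. Its M3 libraries held 4, 4 and 9 counts, so it entered the test through the sections where it was higher. The call and its left-out fits are therefore not given as support for a difference between sections. Its corn libraries, which the rule used, averaged 1.85, 0.866 and 0.396 CPM in M1, M2 and M3.

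TRINITY_DN244_c0_g1 ran the other way. It had 0.786, 0.285 and 0.821 CPM in green bean M1, 0.728, 0.894 and 1.05 CPM in M2, and 3.51, 2.24 and 3.57 CPM in M3, which lay above both other sections. The log2 fold change, M3 over M1, was 2.26 with a standard error of 0.53 (edgeR adjusted p = 0.0244). The call was lost in 4 of 9 fits, those without M1 replicate 3, M2 replicate 2, M3 replicate 1 or M3 replicate 3, with an adjusted p of up to 0.0701, and with no filter on low counts (edgeR adjusted p = 0.0829). On corn, whose libraries the rule used, M3 held 5.99, 4.73 and 6.01 CPM, against at most 1.21 CPM in the other sections.

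TRINITY_DN6216_c0_g1, named because the count is small, had 4 to 7 counts in each M1 and M2 library and 17, 29 and 75 in M3, so it entered the test through M3, the section where it was high. It was called between M3 and M2 (log2 fold change 2.83, standard error 0.66, edgeR adjusted p = 0.0442). It had 0.139, 0.163 and 0.307 CPM in green bean M2 and 0.548, 0.854 and 2.91 CPM in M3, and M3 replicate 3 was the highest. The call was lost in all 9 fits that left out 1 library. With the replicate block, it also passed between M3 and M1 (edgeR adjusted p = 0.0488), as did TRINITY_DN5568_c1_g1, with a log2 fold change of -3.99 (edgeR adjusted p = 0.0383). The latter did not pass without the block (edgeR adjusted p = 0.0587). It had 34, 37 and 14 counts in M1 and at most 6 in any M2 or M3 library, and so entered the test through M1, where it was high. These calls are therefore not given as support for a difference. The section means of these members were under 1% of the gland mean on the same diet, except in M1 for TRINITY_DN6146_c0_g1.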

How the data were processed

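Per the labels, RNA was measured in 24 libraries, and the authors deposited estimated counts as whole numbers for 298322 assembled transcripts in 3 tables (corn, glands and midguts). The submitters' processing notes name Salmon 0.12, Trim Galore 0.4.4 and DESeq2 1.20.0 without saying what each did. The making of the tables is otherwise not given in the sources used. The same corn library differs between tables by a factor that belongs to the gene (SD 0.0639 on the log2 scale over the members, corn against gland table), so each test stayed within 1 table. Such a factor could move a member across a limit.

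Members came from the corn table, and gland and midgut levels from the other tables. Members, lists and tests were chosen with earlier results of these data known. Isoforms were summed to genes, kept by filterByExpr (minimum count 10), scaled by TMM and tested two-sided with edgeR 4.0.16 (glmQLFit robust, glmQLFTest) in R 4.3.3; DESeq2 1.42.0 was an alternative. Standard errors are the fold change divided by the root of F. The 12741 genes kept held 99.5% of gland counts. The fits were tested on simulated data with known changes, drawn with the trended spread and again with each gene's own spread. Median fold changes came out near those set and false calls were few, but the diet test on genes missed most of the smaller changes, and the transcript and section tests missed nearly all changes of either size. Named genes were the 2 largest called rises and falls with diet (at least 10 CPM, no overlap), the 2 highest on green bean, the 2 least and 2 most variable, the genes at each limit, the 2 largest isoform differences, the component with the most members and the 2 lowest section p-values; others are said to be named later. The 24 replicate pairs differed by a chi-square per degree of freedom of 54.2 to 498, where sampling noise gives about 1. Same-numbered green bean midgut libraries deviated together (9 correlations of 0.146 to 0.874, all above 0.1), a pairing read from the data. The 18 pairs of different number ran from -0.821 to 0.654, some as high for replicates 2 and 3. Same-numbered gland libraries of the 2 diets did not all do so. Their correlations were -0.0027, -0.0609 and 0.181 for replicates 1, 2 and 3, with only the last above 0.1. Intervals at a count of 0 cover counting error only.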

Additional observations from a re-analysis of the deposited data

How the results depend on the processing

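With the alternatives tried, the count of 4 members called lower on green bean was 2 with DESeq2 size factors, 16 with DESeq2, 15 with no filter on low counts (0.156% of all genes), 0 to 4 when 1 library was left out, 0 without corn replicates 2 and 3, and 1 for genes chosen by the same rule on green bean. Members called higher (0) were 4 with DESeq2, 10 with no filter (0.251% of all genes) and 1 for the green bean choice. All genes called (15) were 401 with DESeq2, 533 with no filter, 1 to 57 when 1 library was left out and 1 without corn replicates 2 and 3. Member isoforms called (0) were 41 with DESeq2 and 48 with no filter (2.71% and 0.526% of all transcripts). With no filter, the median fold change of all genes moved to 0.64, while that of the members was -0.62. The cause of these changes was not tested. Of 44 values of the 4 named calls under alternatives, 17 kept their side of the threshold, 27 lost it and 0 reversed.

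With the replicate number as a block, 0 members were called lower and 1 gene in all, and the 4 named members had edgeR adjusted p from 0.150 to 0.161. The glands share only a number. In the midgut the block gave 4 members between M3 and M1 (2 without it) and changed no other section count. DESeq2 gave 1, 3 and 6 members for M2 against M1, M3 against M2 and M3 against M1 (12.1%, 18.7% and 30% of all genes), no filter gave 4, 0 and 6 of 94 members (0.751%, 1.3% and 2.04% of all genes), and leaving out 1 library gave 0 to 1 between M3 and M2 and 1 to 4 between M3 and M1.

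Applied to transcripts in place of gene sums, the rule found 239 transcripts, which came from 88 of the member genes among others; a midgut limit of 0.5% or 2%, TMM-scaled totals and leaving out a replicate gave 91 to 97 members, and the rule on green bean 108 genes. The count of members below 0 (50 to 74), an alternative chosen after seeing the data, and that of members confined on green bean (84 to 94) stayed within 1.5 times. Midgut levels of a few counts per library limit every section comparison.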
